A study of Mus musculus with 120 samples.

Results

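Blood of 24-week-old App-NLGF and wild-type mice differed in DNA methylation at 567 windows of 1 kb, which are all the windows the authors called for this tissue and age, taken by the prefix of their identifiers from a list of 8961 windows over 6 comparisons. Of these, 468 were higher and 99 lower in App-NLGF, so that 82.5% were higher (95% Clopper-Pearson interval 79.2 to 85.6). The study sequenced bisulfite-treated genomes of hippocampus and blood at postnatal weeks 3, 8 and 24, 120 libraries in all, and asked where the 2 genotypes differ at each age. For blood at week 24 the labels give 10 libraries of App-NLGF mice and 10 of wild-type mice, 5 male and 5 female in each group, and sex was a covariate in the authors' comparison. In App-NLGF mice the amyloid-beta stretch of the mouse App gene is humanised, and the gene carries the Swedish, Arctic and Iberian mutations of familial Alzheimer disease. The knock-in leaves App under its own promoter in every cell, and it forms amyloid plaques in brain without overexpression of the precursor. The labels name no background strain and do not say whether a mouse gave both tissues, nor that each library is a separate animal. If the libraries are not separate animals, p-values measure at most the spread between libraries.

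Bisulfite spares methylated cytosine and turns the unmethylated base into uracil, so the share of cytosines read as C gives a methylation level. In mammals most methylation lies on CG dinucleotides. Most of the genome is methylated there, and promoters rich in CG are usually not. Whole blood DNA comes from white cells, and lymphocytes, neutrophils and monocytes differ from each other in methylation at many sites. A different mix of white cells and a different methylation within them cannot be told apart in such values.

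Every difference and adjusted p below is the authors' own, from their deposited table, and each is a single value for 10 libraries against 10. Levels of methylation, read coverage and the single libraries were not analysed here. The depth behind a window is therefore unknown, no spread between mice can be given, and the label of the tissue could not be checked against blood markers. A difference is in percentage points. Its sign is taken as the App-NLGF level less the wild-type level, an order known from the comparison's name alone, and with the opposite order each direction given here would be reversed. Coordinates are mm10, and genes are those of RefSeq on GRCm38.p6, which shares its coordinates.

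Windows that held the start of a gene are shown first, because there a difference lies where transcription begins. The authors' deposited table has a called window over the start of 4 coding genes. The 250 bases before each start, from RefSeq on GRCm38.p6, lay wholly inside the window. They are printed 5′ to 3′ on the strand of the gene with CG in capitals. The Tmem200a stretch is chr10:26079053-26079302 on the minus strand, Copz2 is chr11:96849626-96849875 on the plus strand, Cnp is chr11:100574689-100574938 on the plus strand, and Nexmif is chrX:104201185-104201434 on the minus strand.
Tmem200a: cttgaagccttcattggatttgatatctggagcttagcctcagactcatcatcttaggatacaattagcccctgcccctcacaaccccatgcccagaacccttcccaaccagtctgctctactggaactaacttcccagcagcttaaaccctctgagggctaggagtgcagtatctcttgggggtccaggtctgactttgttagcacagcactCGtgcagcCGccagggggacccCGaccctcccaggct
Copz2: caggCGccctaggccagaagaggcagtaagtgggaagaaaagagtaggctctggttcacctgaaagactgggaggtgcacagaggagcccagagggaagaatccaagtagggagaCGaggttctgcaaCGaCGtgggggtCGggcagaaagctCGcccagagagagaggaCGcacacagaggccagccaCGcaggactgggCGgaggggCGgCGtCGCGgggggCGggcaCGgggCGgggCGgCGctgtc
Cnp: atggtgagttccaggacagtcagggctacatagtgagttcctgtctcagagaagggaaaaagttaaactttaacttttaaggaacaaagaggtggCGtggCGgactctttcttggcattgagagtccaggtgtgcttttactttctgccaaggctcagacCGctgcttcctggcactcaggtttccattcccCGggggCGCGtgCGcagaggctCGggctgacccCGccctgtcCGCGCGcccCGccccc
Nexmif: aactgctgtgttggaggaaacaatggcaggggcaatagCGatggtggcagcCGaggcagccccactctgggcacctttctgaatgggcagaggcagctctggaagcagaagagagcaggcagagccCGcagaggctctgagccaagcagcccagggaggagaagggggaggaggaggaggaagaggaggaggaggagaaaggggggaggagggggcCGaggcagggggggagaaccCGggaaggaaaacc

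The start of Copz2, which encodes a subunit of the coat of Golgi vesicles, held 18 CG, and its window was 10.7 points higher in App-NLGF (adjusted p = 0.0941). Among 32851 RefSeq promoters of that length the median was 6 CG, and 21.7% had at least as many as Copz2. Cnp, which encodes a myelin enzyme of oligodendrocytes, held 13 CG, a count that 31.5% of promoters reached, and its window was 13.1 points higher (adjusted p = 0.0826). The other 2 starts were lower in App-NLGF. Tmem200a held 3 CG, which 71.0% of promoters reached, and its window was 15.7 points lower, a difference of -15.7 (adjusted p = 0.00822). Nexmif, an X-linked gene needed for neurite growth and mutated in intellectual disability, held 5 CG, which 55.6% of promoters reached, and its window differed by -17.0 (adjusted p = 0.0346). Among these 4 coding starts, those with more CG than the median promoter were higher, and those with fewer were lower. The noncoding genes Gm36897 and Gm35196 also had their start inside a window. Gm36897 departed from that order, with 3 CG and a difference of 13.8 (adjusted p = 0.0461). Gm35196 had 0 CG and a difference of -10.8 (adjusted p = 0.0784). So few starts give no rule on CG content. The motif GGGCGG or its reverse complement CCGCCC, the core of a GC box, was counted as copies that share no base. It occurred 4 times in the Copz2 stretch, 2 times in Cnp and 0 times in the Tmem200a, Nexmif and noncoding stretches. At least 1 copy stood in 32.7% of all promoters.

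Hairpins of 2 miRNAs lay within 2 kb of a called window. The Copz2 window, chr11:96849001-96850000, ended 0.393 kb before the hairpin of miR-152, a miRNA known to target the mRNA of Dnmt1. A second window on chromosome 11, chr11:79710001-79711000, was 13.4 points higher (adjusted p = 0.0594) and ended 0.969 kb before the hairpin of miR-193a. Their mature sequences, from RefSeq, are given with the seed, bases 2 to 8, in capitals. The 4 seeds differ from each other.
mmu-miR-152-3p: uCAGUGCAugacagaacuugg
mmu-miR-152-5p: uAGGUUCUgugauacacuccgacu
mmu-miR-193a-3p: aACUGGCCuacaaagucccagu
mmu-miR-193a-5p: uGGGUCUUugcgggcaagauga

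The list is short beside what was tested. Dividing p by adjusted p gives a rank, from which 2321255 windows followed as tested, if the adjustment was that of Benjamini and Hochberg, so 0.0244% were called, 0.0202% as higher and 0.00426% as lower. The other lists of the authors' deposited table came to 0.0495% of windows in blood at week 3, 0.196% in blood at week 8, and 0.044%, 0.0318% and 0.0408% in hippocampus at weeks 3, 8 and 24. The list also holds a part of the windows with a low adjusted p. Under an adjusted p of 0.05 the last listed window had rank 320, and 209 windows up to it were listed (65.3%). Under 0.1 the last had rank 959, and 567 were listed (59.1%). Under 0.01 the list held 34 windows. Several of these shared the largest adjusted p, so the rank of the last, and the share listed, could not be read. The 392 windows not listed had no printed difference here. No listed window was below 10 points, the smallest being 10.01.

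Increases and decreases were of like size, and the lists differ in number rather than in magnitude. In the authors' deposited table the increases ran from 10.01 to 38.9 points with a median of 13.9, and the decreases from -10.3 to -34.8 with a median size of 13.98. At least 15 points were reached by 191 increases (40.8%) and 37 decreases (37.4%), and at least 25 points by 19 (4.06%) and 4 (4.04%). Adjusted p fell between 0.00136 and 0.09997, and 358 of the 567 windows had a value above 0.05. The share of higher windows was 85.3% (68.9 to 95.05, 29 of 34) under an adjusted p of 0.01, 78.9% (72.1 to 84.7, 138 of 175) from 0.01 to 0.05, and 84.1% (79.9 to 87.7, 301 of 358) from 0.05 to 0.1. Increases outnumbered decreases in each band of adjusted p.

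**Figure D1:**
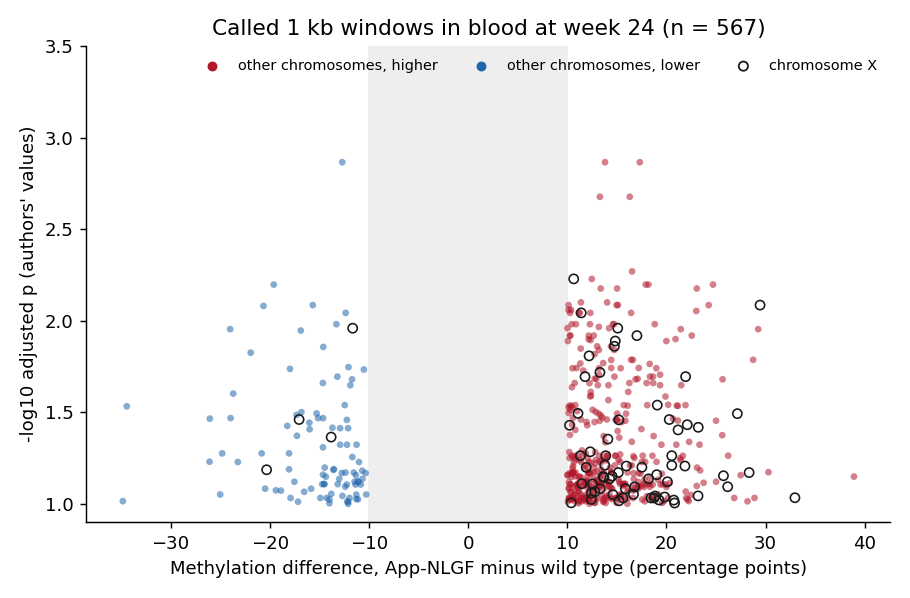
Each point is a called window in blood at week 24, with its methylation difference in percentage points, App-NLGF minus wild type, against −log10 of the authors' adjusted p. Open circles are windows on chromosome X, and the grey band from -10 to 10 holds no window because smaller differences were not listed. Points crowd on the right, with 468 windows higher and 99 lower, and most lie low, 358 of them above an adjusted p of 0.05.

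The 82.5% of windows higher at week 24 was more than in the other blood lists and in the hippocampus of the same age. In the authors' deposited table, blood windows at week 3 were higher in 63.2%, a difference of 19.3 percentage points (adjusted p = 5.59e-17, Fisher's exact test, two-sided, adjusted over 3 pairs). At week 8 it was 11.1%, which is 71.4 points less (adjusted p = 1.73e-279 by the same test). In hippocampus at week 24 it was 58.6%, which is 24.0 points less (adjusted p = 1.04e-22). Windows are not mice, so these tests compare lists and not groups of animals.

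**Figure D2:**
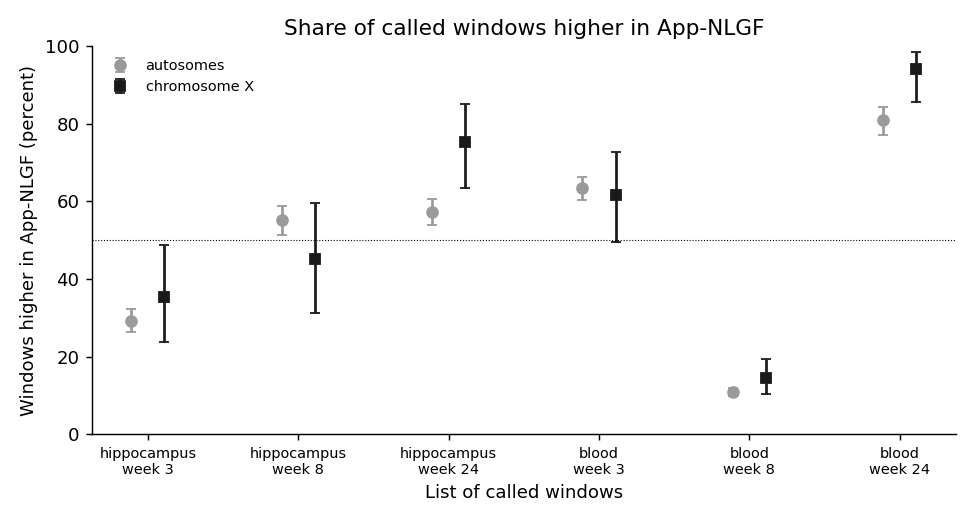
The share of called windows higher in App-NLGF, in percent, for each of the 6 lists, with windows on the autosomes as grey circles and on chromosome X as black squares; bars are 95% Clopper-Pearson intervals over windows. Blood at week 24 had the highest share on both, 80.9% and 94.1%, and blood at week 8 the lowest, 10.9% and 14.5%.

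Chromosome X held more of the windows than its length gives. The 1 kb grid used for length here is every window from the first to the last gene of each chromosome, tested or not. It carried 68 of the 565 windows on assembled chromosomes, 12.04% (9.47 to 15.0), where X makes up 6.53% of the 1 kb grid and 5.48% to 7.27% of the windows in the other 5 lists. Of the 68, 64 were higher (94.1%, 85.6 to 98.4). On the autosomes 402 of 497 were higher (80.9%, 77.1 to 84.3). The X windows were also somewhat larger, with a median size of 15.7 points against 13.7, and X windows had the larger median in the other 5 lists as well. Each group held 5 males and 5 females, and values per sex were not analysed here, so the part of sex in the X windows was not tested.

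At coding genes, X had a window in the body or within 10 kb of 28 of 966 genes (2.90%), against 242 of 20665 on the autosomes (1.17%), and 25 of the 28 were higher. The genes named in this paragraph beyond the rule of the methods were chosen after their values were seen. Zfx, a zinc-finger transcription factor, differed by 17.0 points (adjusted p = 0.0121). Dmd, which encodes dystrophin, differed by 11.4 points (adjusted p = 0.00906). Suv39h1, a histone methyltransferase of heterochromatin, differed by 13.3 points (adjusted p = 0.0826), and Vsig4, a complement receptor of tissue macrophages, by 15.1 points (adjusted p = 0.0674). Decreases were found at Nexmif, at Fgf13 (-13.8, adjusted p = 0.0432) and 8.74 kb from the predicted gene Gm14692 (-20.3, adjusted p = 0.0651).

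Il1rapl2, an X-linked relative of the interleukin-1 receptor accessory protein, had 2 windows, of 11.1 points (adjusted p = 0.0321) and 22.1 points (adjusted p = 0.0370). The second, chrX:138715001-138716000, lay next to a window called in hippocampus at week 24 in the authors' deposited table, which was higher by 17.5 points (adjusted p = 0.0939). The same hippocampus list held another Il1rapl2 window that was lower (-11.6, adjusted p = 0.0857). A different window of the same gene, called in blood at week 8, was lower (-14.1, adjusted p = 0.0828).

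Among the autosomes increases outnumbered decreases on every chromosome. The interval of the share higher took in an even split on chromosomes 7 (37.2 to 75.5), 10 (45.7 to 88.1) and 11 (49.2 to 84.7). It did so on chromosomes 15 (46.5 to 90.3) and 19 (40.0 to 97.2) as well. Chromosome 7 was the least one-sided, with 16 of 28 windows higher, followed by chromosome 5 with 24 of 35 and chromosome 11 with 20 of 29. At the other end stood chromosome 1 with 39 of 42, chromosome 6 with 37 of 40 and chromosome 18 with 14 of 15. Chromosome 16, which carries App, had 28 windows, 4.96% of those placed against 3.75% of the grid, and 23 were higher. None lay in App itself (chr16:84952666-85175255). The nearest was chr16:85598001-85599000, 423 kb away and 15.6 points higher (adjusted p = 0.0780), and it was the only one within 1 Mb.

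**Figure D3:**
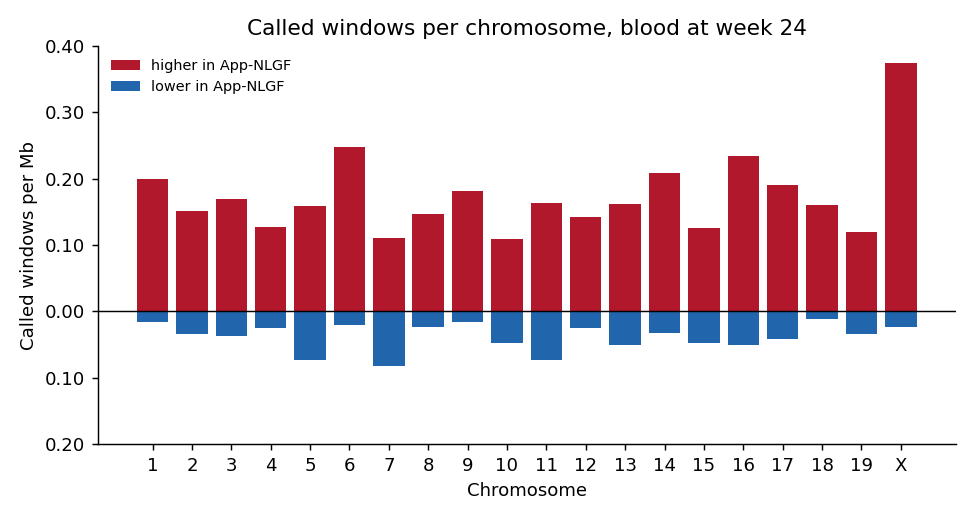
Called windows per Mb of each chromosome in blood at week 24, with windows higher in App-NLGF drawn upward in red and lower windows downward in blue. Chromosome X stands above all others upward, with 64 higher windows and 4 lower, and chromosome 7 has the longest downward bar, with 12 lower windows beside 16 higher.

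The windows lay in genes somewhat less often than the grid does. The grid was not limited to the windows tested, whose positions are unknown. Of the 565 placed windows 186 overlapped a coding gene (32.9%, 29.1 to 37.0), against 40.1% of the 1 kb grid, and 156 of these were higher (83.9%). Among the 33 placed windows with an adjusted p under 0.01 the share was 39.4% (22.9 to 57.9). Windows at the ends of coding genes, no more than 1 kb from where a gene starts or stops, made up 3.54% (2.18 to 5.41, 20 windows), against 4.36% of the grid, and 16 of the 20 were higher. In blood at week 8, by contrast, 41.9% of the windows in the authors' deposited table lay at such gene ends and 63.1% in coding genes. Over 100 kb from every coding gene lay 191 windows, 33.8% (29.9 to 37.9) against 28.6% of the grid, and 81.2% of them were higher. Noncoding genes alone held 59 windows, 10.4% (8.04 to 13.3) against 8.71%. The share of increases ran from 78.0% (65.3 to 87.7, 46 of 59) in noncoding genes to 91.9% (78.1 to 98.3, 34 of 37) in coding genes of at least 500 kb. Both intervals hold the 82.5% of all windows. Which of these windows are exons, introns or untranslated regions was not determined.

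**Figure D4:**
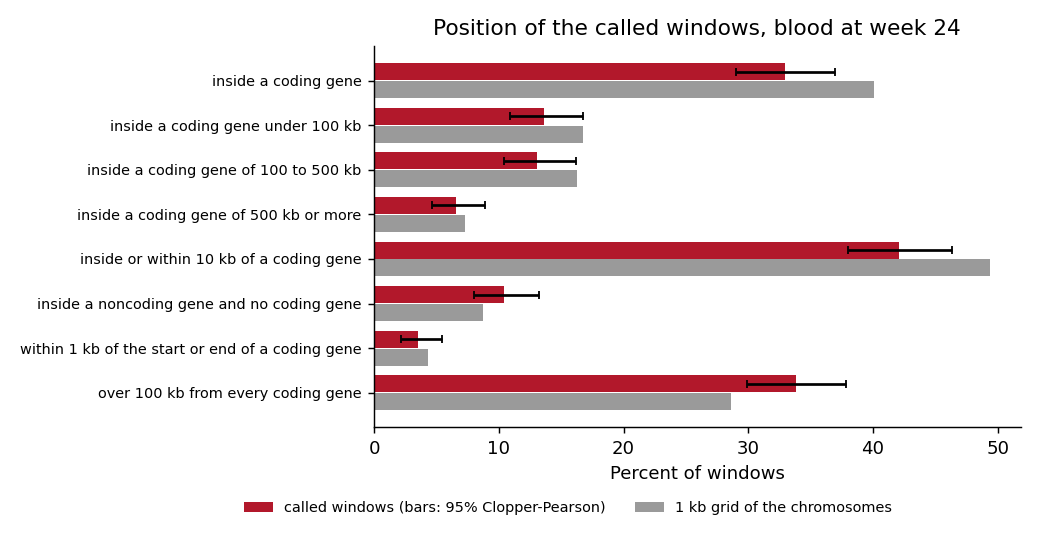
Percent of called windows in blood at week 24 that fall in each class of position (red, with 95% Clopper-Pearson intervals over windows), beside the percent of all 1 kb windows of the chromosomes (grey); classes overlap. The interval for windows inside coding genes, 29.1 to 37.0, lies under the grid's 40.1%, and that for windows over 100 kb from coding genes, 29.9 to 37.9, lies above its 28.6%.

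Counted by gene, 270 of 21631 coding genes (1.25%) had a window in the body or within 10 kb. Of all coding genes 1.04% had a higher window and 0.213% a lower one. The count followed length, since a long gene holds more windows: 0.739% of coding genes under 100 kb, 4.05% of those from 100 to 500 kb and 17.2% of those of at least 500 kb (39 of 227) had one. In the longest class 35 genes had an increase and 4 a decrease. The decreases there were in or near Macrod2, Dock2, Fgf13 and Asic2.

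The largest increase at any named coding gene was in Egfem1, at chr3:29664001-29665000, with 38.9 points (adjusted p = 0.0709). It lay 582 kb into a gene of 609 kb. The protocadherin alpha cluster on chromosome 18, a set of neuronal adhesion genes that share exons, had 23.7 points (adjusted p = 0.0767) in a window that lies in the bodies of 12 Pcdha genes and cannot be given to 1 of them. Gpc5, a cell-surface heparan sulfate proteoglycan, differed by 23.3 points (adjusted p = 0.0475), and Nap1l3, of the nucleosome assembly protein family, by 23.2 points at 2.56 kb from its body (adjusted p = 0.0382). The odorant receptor Olfr58 (22.0 points, 3.94 kb away) and the zinc-finger gene Zfp169 (21.9 points, 2.51 kb away) were, with Il1rapl2, also among the largest increases.

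The largest decreases at named genes reached a like size. The window 3.14 kb from Olfr112, an odorant receptor, differed by -34.4 (adjusted p = 0.0293), and the one 4.46 kb from Olfr681 by -26.0 (adjusted p = 0.0342). Adk, which encodes adenosine kinase, had a window of -24.8 at chr14:21280001-21281000 (adjusted p = 0.0530). Macrod2, an enzyme that removes ADP-ribose from proteins, had one of -23.7 (adjusted p = 0.0250). The RNA-binding protein gene Rbpms differed by -21.9 (adjusted p = 0.0149), and Nell2, a secreted neuronal protein, by -20.8 (adjusted p = 0.0530). Lyrm4, needed to build iron-sulfur clusters, had a window of -19.4 (adjusted p = 0.0843), and the phospholipase receptor gene Pla2r1 one of -18.0 (adjusted p = 0.0530). Odorant receptors made up 12 of the coding genes with a window, 1.08% of 1106 such genes, which is near the 1.25% of all coding genes. Counted by gene they were split, 7 higher and 5 lower, where 226 of all coding genes had a higher window and 46 a lower one. Neighbouring receptors such as Olfr1383 and Olfr1382 share a window, so the split is not one of separate windows.

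Large differences also stood far from coding genes. The largest decrease in the authors' deposited table for this comparison was -34.8 at chr3:40214001-40215000 (adjusted p = 0.0966), 316 kb from Intu. The next increases after Egfem1 were 33.0 at chrX:114292001-114293000 (adjusted p = 0.0925), 181 kb from Klhl4, and 30.3 at chr10:12004001-12005000 (adjusted p = 0.0671), 377 kb from Utrn. None of these 3 had an adjusted p under 0.05. The next increases did, 29.4 at chrX:127088001-127089000 (adjusted p = 0.00822), 24.0 kb from Gm382, and 29.2 at chr8:113126001-113127000 (adjusted p = 0.0111), 243 kb from Cntnap4. A scaffold window of 28.9 points followed (adjusted p = 0.0928), then 28.7 at chr14:92379001-92380000 (adjusted p = 0.0163), 634 kb from Pcdh9.

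The 8 smallest adjusted p at named coding genes went with differences of 10.6 to 17.9 points in size. Lsamp, a neuronal adhesion protein of the limbic system, had a window of 13.8 points at chr16:41422001-41423000, and Cntn4, a contactin of axons, one of 17.3 points at chr6:106446001-106447000. Uvssa, a factor of transcription-coupled DNA repair, had a window of -12.7 at chr5:33401001-33402000. All 3 had an adjusted p of 0.00136, the smallest in the list. Galnt17, an enzyme of the mucin-type O-glycosylation family, differed by 16.3 points and the F-box gene Fbxw19 by 13.3 points at 0.507 kb from its body (both adjusted p = 0.00211). Lrrc4c, which encodes a ligand of netrin G, differed by 17.9 points (adjusted p = 0.00635), and Ccdc160 on X by 10.6 points at 3.53 kb (adjusted p = 0.00591). The only gene of these 8 known mainly from immune cells was Icos, the inducible costimulator of T cells. Its window, chr1:60986001-60987000, was 12.5 points higher (adjusted p = 0.00591).

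Of the gene lists for blood, most had no window at all. Markers of T cells (22 genes), B cells (20), natural killer cells (14) and erythroid cells and megakaryocytes (22) each had 0 genes with a window, as did 31 lineage transcription factors and 39 innate sensors and interferon genes. Icos is not on the T cell list. Of 24 myeloid markers 1 had a window, Csf3r, the receptor of granulocyte colony-stimulating factor. Its window was 12.2 points higher (adjusted p = 0.0219), but lay 8.03 kb from Csf3r and inside the mitochondrial ribosomal gene Mrps15. Of 51 cytokines, chemokines and receptors 1 had a window, Ifngr2, a chain of the interferon-gamma receptor, with 14.2 points at 5.06 kb (adjusted p = 0.0798). The share over all coding genes was 1.25%, so that 0 or 1 gene in lists of this length is no result about the lists.

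The antigen receptor loci, which lymphocytes rearrange, had windows in 2 of 10. Both are long, Igh with 2751 kb and Tcrb with 667 kb, and 17.2% of coding genes of at least 500 kb had a window. The immunoglobulin heavy chain locus Igh had 3, of -17.1 at chr12:114143001-114144000 (adjusted p = 0.0973), 16.1 at chr12:115031001-115032000 (adjusted p = 0.0826) and 18.3 at chr12:115232001-115233000 (adjusted p = 0.0202). The signs were mixed in this locus. The T cell receptor beta locus Tcrb had 1, of 14.4 points at chr6:41147001-41148000 (adjusted p = 0.0181). In blood at week 8 the authors' deposited table held 4 windows in Igh and 1 in Tcrb, all lower, from -10.99 to -16.3. It held 1 window in each locus in blood at week 3, of -15.8 in Igh and 13.6 in Tcrb, and 4 in Igh in hippocampus at week 24, all higher, from 12.4 to 23.9.

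Other genes of immune cells with a window were found after the values were seen and are on no list. Dock2, which drives the migration of lymphocytes, had a window of -15.1 (adjusted p = 0.0340), and a window 0.862 kb from Icam2, an adhesion molecule of endothelium and white cells, differed by -13.1 (adjusted p = 0.0780). Increases stood in Cd200r3, a receptor of the CD200 receptor family (14.05 points, adjusted p = 0.0550), in Klra4, a natural killer receptor gene (13.0 points, adjusted p = 0.0788), and 7.31 kb from Vcam1, the adhesion molecule that binds white cells to vessels (10.3 points, adjusted p = 0.0121). Klra genes are near-identical copies of each other, so the placing of reads among them is uncertain.

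Of 40 Alzheimer risk genes 6 had a window (15.0%, beside 1.25% of coding genes), and all 6 windows were higher, with a median of 11.1 points, where 82.5% of all 567 windows were higher. The list was drawn up with earlier results of these data known, so the contrast of shares is no test of it. The 6 genes run from 10.03 kb (Cd33) to 2241 kb (Cntnap2), and 4 of them lie between 100 and 500 kb, a class in which 4.05% of coding genes had a window. Sorl1, a sorting receptor that keeps the amyloid precursor out of processing, had 10.6 points at chr9:42076001-42077000 (adjusted p = 0.0340), 47.3 kb into the gene. Ptk2b, a tyrosine kinase of neurons and white cells, had 13.5 points at chr14:66260001-66261000 (adjusted p = 0.0889), and Unc5c, a netrin receptor, had 11.1 points (adjusted p = 0.0808). Cntnap2, a neuronal adhesion gene of 2241 kb, had 10.2 points (adjusted p = 0.0759). The windows of Cd2ap, an adaptor of the actin cortex, and Cd33, a sialic-acid receptor of myeloid cells, lay outside their genes, at 6.29 kb (15.7 points, adjusted p = 0.0289) and 9.58 kb (11.1 points, adjusted p = 0.0774). Sorl1 and Cd2ap had an adjusted p under 0.05, and the other 4 did not. Among 28 genes of App processing and amyloid clearance 2 had a window (7.14%), Sorl1 and Mapt, both between 100 and 500 kb long, and App, Bace1 and Apoe did not. Mapt, which encodes tau, had 10.3 points at chr11:104267001-104268000 (adjusted p = 0.00906), and the next window on that chromosome, 77 kb further on in Kansl1, was lower (-11.3, adjusted p = 0.0697).

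Axon guidance and cell adhesion genes, which are mostly long, had a window in 10 of 71 (14.1%), all in the gene body and all higher, with a median of 14.01 points. Of all 567 windows 82.5% were higher, and of those in coding genes of at least 500 kb 91.9% (34 of 37) were. The median length of this list was 371 kb, and the share with a window among coding genes of 100 to 500 kb was 4.05% and of longer ones 17.2%. Lsamp and Cntn4 were described above. The Slit receptors Robo1 and Robo2 had 17.4 points (adjusted p = 0.0685) and 15.1 points (adjusted p = 0.0400). Cntnap5b, of the contactin-associated family, had 16.9 points (adjusted p = 0.0209), and the cadherin Cdh13 had 14.2 points (adjusted p = 0.0110). Ntng1, which encodes netrin G and binds the product of Lrrc4c, had 11.4 points (adjusted p = 0.00794), and Sema3a, a repulsive guidance cue, had 11.1 points (adjusted p = 0.0710). Unc5c and Cntnap2 belong to both this list and the risk genes.

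Of 63 synapse genes 6 had a window (9.52%), 4 higher and 2 lower. The median length of this list was 278 kb, and the shares of all coding genes were 4.05% from 100 to 500 kb and 17.2% above. The higher ones were Syn1, a synapsin of vesicles on X (18.2 points, adjusted p = 0.0730), the glutamate receptors Grm8 (15.7 points, adjusted p = 0.0928) and Grin2b (13.2 points, adjusted p = 0.0108), and the neurexin Nrxn3 (12.1 points, adjusted p = 0.0819). The lower ones were Homer1, a scaffold of the postsynaptic density (-10.3, adjusted p = 0.0888), and the glutamate receptor Gria1, whose window lay 3.76 kb away (-14.6, adjusted p = 0.0340). Of 47 ion channel genes 2 had windows (4.26%), near the 4.05% of coding genes of 100 to 500 kb, the class that holds the list's median length of 320 kb, so this count is no result about the list. Cacna1d, a calcium channel, had 17.7 points (adjusted p = 0.0808), and Itpr1, a calcium release channel, had 2 windows of opposite sign, 10.4 (adjusted p = 0.0861) and -14.6 (adjusted p = 0.0139).

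Among 45 regulators of DNA methylation and chromatin 2 had a window (4.44%, beside 1.25% of coding genes), and both windows lay outside the gene. The histone deacetylase gene Hdac9, which is 870 kb long, had 15.9 points at 2.58 kb (adjusted p = 0.0352), and the polycomb-linked Asxl3 had 13.6 points at 6.08 kb (adjusted p = 0.0170). The DNA methyltransferases and Tet dioxygenases had none. The lists of imprinted genes (29 in the annotation), autophagy and insulin signalling (40), the circadian clock (21), developmental transcription factors (65) and glial and vascular markers (25) had 0 genes with a window. Over all lists 29 of 699 genes (4.15%) had a window, 22 of them in the gene body, beside 1.25% of coding genes. The lists hold many long genes, and this share was not adjusted for length. They were also chosen with earlier results of these data known, so the share is no test of them.

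**Figure D5:**
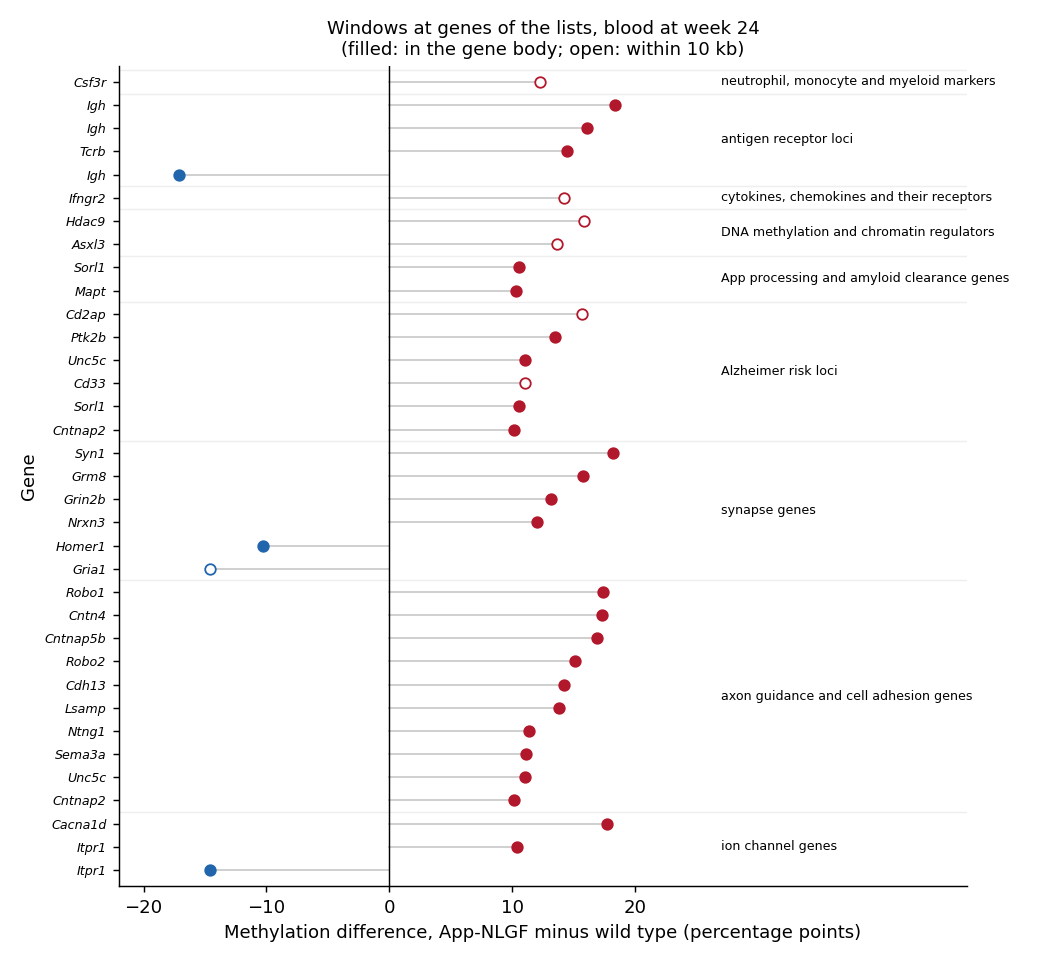
Each point is a called window at a gene of the lists in blood at week 24, placed by its methylation difference in percentage points, App-NLGF minus wild type; filled points lie in the gene body and open points within 10 kb, and genes on more than 1 list are repeated. All 10 axon guidance and adhesion windows and all 6 risk gene windows are higher, while synapse genes, Igh and Itpr1 hold windows of both signs. Of all 567 called windows 82.5% are higher. Lists with no window are not drawn.

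The windows stood alone along the genome. A single pair lay within 10 kb of each other, in Fam53b on chromosome 7, where windows 4 kb apart differed by -14.9 (adjusted p = 0.0928) and -11.5 (adjusted p = 0.0674). Within 100 kb there were 16 pairs, 10 of them of the same sign, which took in 32 windows (5.64%). With 82.5% of all windows higher, most pairs of any windows share a sign, so this count is no result about neighbours. The authors' deposited table had 3 pairs within 10 kb in each hippocampus list, 6 in blood at week 3 and 306 in blood at week 8. Coding genes with 2 windows were Fam53b, Il1rapl2, Itpr1, Lyrm4, Nbas and Rbfox1. In Nbas, a factor of vesicle traffic, both were higher (11.7 and 11.8 points), as in Rbfox1, a splicing regulator of neurons and muscle (10.9 and 10.9 points). Lyrm4 had 1 of each sign (-19.4 and 10.4).

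Few windows recurred in the other lists. The same window was called again once, chr14:85593001-85594000, which was 11.1 points higher at week 24 (adjusted p = 0.00906) and lower in blood at week 8 (-12.2, adjusted p = 0.0116). That is 0.176% of the 567 windows and 0.0221% of the 4526 of week 8, beside the 0.196% of all windows called at week 8. Adjacent windows were called over the start of Tmem200a at week 24 (-15.7) and just beyond it in blood at week 8 (-11.5, adjusted p = 0.00322), both lower. Adjacent windows on chromosome 14 were lower in blood at week 24 (chr14:111033001-111034000, -14.7, adjusted p = 0.0780) and in hippocampus at week 8 (-25.6, adjusted p = 0.0283). In Smarca1 on X, a chromatin remodeller, the window at week 24 was higher in blood (12.4 points, adjusted p = 0.0873) and its neighbour lower in hippocampus (-14.4, adjusted p = 0.0427). Within 5 kb, 1 of 4 recurrences in blood at week 8 and 1 of 2 in hippocampus at week 24 had the same sign. The other opposite pairs were 16.6 against -18.6 at chr2:101195001-101196000 and 12.3 against -12.1 at chrX:134280001-134281000, both with blood at week 8. At chr18:4917001-4918000 the values were 12.7 here and -10.3 in blood at week 3.

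By gene the list of blood at week 24 shared most genes with that of blood at week 8, the longest list, mostly with opposite signs. Of the 270 coding genes 81 (30.0%) also had a window at week 8, where 19.5% of all coding genes did, and these 81 are 1.92% of the genes of week 8. Windows were higher at week 24 and lower at week 8 in 61 genes, lower in both in 11, higher in both in 4 and the reverse in 1, and 4 had mixed signs. Mapt was 10.3 points higher at week 24 and had another window at week 8 that was lower (-11.2, adjusted p = 0.00533). Ptk2b had -10.4 at week 8 (adjusted p = 0.000244) beside 13.5 at week 24, in different windows of the gene. Uvssa was lower at both ages, -12.5 at week 8 (adjusted p = 3.39e-09) and -12.7 at week 24. Fam53b was also lower at both, with week 8 values of -10.8 and -12.4, and Rbpms, with -10.1 at week 8 (adjusted p = 0.0163). With hippocampus at week 24 the list shared 23 coding genes (8.52%), where 2.43% of coding genes had a window, and 9 of these were higher in both, 10 higher here and lower there. It shared 24 with hippocampus at week 3 (8.89%, beside 2.60% of coding genes) and 14 with hippocampus at week 8 (5.19%, beside 1.74%). With blood at week 3 it shared 21 (7.78%, beside 2.79%). Relative to these shares of all coding genes, the overlap with blood at week 8 was the smallest. Of coding genes of at least 500 kb 54.6% had a window in blood at week 8 and 17.2% at week 24, and shared genes were not counted by length. Over all windows 82.5% were higher at week 24 and 11.1% at week 8, so opposite signs are frequent between these lists in any set of genes.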

How the data were processed

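Genomic DNA of blood and hippocampus was bisulfite converted and sequenced, with different extraction kits for the 2 tissues, per the labels' protocols. The submitters' processing notes name FastQC, Trim Galore, Bismark, methylKit and mm10, their versions being not given in the sources used here. Both p-values and adjusted p-values, as deposited, are the authors' own for 1 kb windows, and the difference they deposited is in percentage points of methylation. Sex was a covariate, per the series' design text, and the test statistic, coverage filter and adjustment were likewise not stated in those sources.

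A window was given to each RefSeq gene (GRCm38.p6) that it overlapped or that lay no more than 10 kb away, and 2 windows on scaffolds were left out of positions. The number of windows tested was taken from p over adjusted p, assuming Benjamini-Hochberg. At week 24 in blood 80.7% of ranks over 274 distinct adjusted p were whole within 0.02, and the step was tested on simulated data. Shares of higher windows were compared by Fisher's exact test, two-sided, Benjamini-Hochberg adjusted over 3 pairs, at 0.05 (Python 3.11.15, SciPy 1.17.1). Intervals are Clopper-Pearson at 95% over windows. Alternatives used stricter thresholds, merged windows, left out chromosomes X or 16 or gene ends, or changed distances.

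Named genes were the 8 largest increases, 8 largest decreases and 8 smallest adjusted p at coding genes that are not predicted ones, members of 20 gene lists with a window, coding genes with 2 windows, with a window shared with another list, or with their start in a window. The members and lists were chosen with earlier results of these data known. Genes said to be chosen after their values were seen fall outside this rule. A gene that this rule names is not reported here.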

Additional observations from a re-analysis of the deposited data

Results flagged for a closer look

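Blood at week 24 differed from 3 other lists in its share of higher windows. Increases were the majority in blood at week 3 and hippocampus at week 24 as well, and the minority in blood at week 8. Its share of higher windows was 19.3 percentage points above that of blood at week 3 (adjusted p = 5.59e-17), 71.4 points above that of blood at week 8 (adjusted p = 1.73e-279) and 24.0 points above that of hippocampus at week 24 (adjusted p = 1.04e-22), each by Fisher's exact test over windows. The tests compare lists of windows, and no interaction of genotype with age or tissue over mice could be fitted from called windows alone.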

How the results depend on the processing

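The differences in the share of higher windows kept their sign and their side of the threshold under all 6 alternatives run (windows with an adjusted p under 0.01, windows of at least 15 points, same-sign windows within 10 kb merged, without chromosome X, without chromosome 16, and without windows at coding gene ends). They ranged from 17.6 to 24.3 points against blood at week 3 and from 58.7 to 82.4 against blood at week 8. Against hippocampus at week 24 they ranged from 23.0 to 29.0. The largest adjusted p was 0.0111 by Fisher's exact test over windows. All 6 alternatives reuse the same called windows, so they give no measure of the spread between mice. Counts that rest on a distance moved. Windows recurring in another list rose from 1 to 8 within 5 kb and were 0 at 15 points or more in both lists. The share of windows in coding genes moved from 32.9% (grid 40.1%) to 42.1% with genes within 10 kb (grid 49.4%). Under an adjusted p of 0.01 it was 39.4% (22.9 to 57.9, 13 of 33), close to the grid, so the lower share in genes was not seen there. Windows with a neighbour went from 2 to 32 within 100 kb. No paired analysis was possible because the authors' table holds no value per library, and no library could be left out for the same reason. Depth is unknown, so a window built on few reads cannot be told from one built on many.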
